A study of Drosophila melanogaster with 20 samples.

Results

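The step from mef2 allele 113 to the mef2 null was examined as 4 arrays of the null (allele 22.21) against 4 arrays of 113, 8 of the 20 arrays of an allelic series of Drosophila melanogaster. The arrays were chosen by their labels, with earlier results of these data known. A single probe set stood for each gene, and 8357 genes were tested. All arrays measured RNA from whole embryos at mid stage 13, taken from 30 minute collections aged for 6.5 h at 25 °C and pooled in groups of 150. The series ranks the alleles by Mef2 level as control, 65, 424, 113 and null, so that 113 is the hypomorph with the least activity and the step compares residual activity with none. Mutant embryos of both genotypes were picked by the absence of a GFP-marked CyO balancer. Per the series text, mutagenesis of the control stock, dp cn a px sp, gave 113, and the null is not among the alleles listed with that origin, so the loss of the last Mef2 activity and a difference in genetic background cannot be told apart in this step. The labels do not state whether the 4 arrays per genotype hold RNA of separate embryo collections, and the p-values therefore describe the spread among these arrays only, which may be technical.

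Mef2 is a MADS-box transcription factor expressed in the mesoderm and in differentiating muscle. It binds the regulatory regions of many muscle genes, sarcomere protein genes among them, and embryos without it form myoblasts that do not differentiate into normal muscle. Hypomorphic alleles leave part of this activity. In whole embryos, fewer cells of a type and less RNA per cell cannot be told apart.

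The arrays of the null had slightly lower median signals than those of 113. Medians were 35.3 to 36.7 in 113 and 33.6 to 34.8 in the null, so the ranges did not overlap. Across genes, which are not independent replicates, Pearson's r was 0.966 to 0.974 between arrays of 113, 0.964 to 0.976 between arrays of the null and 0.943 to 0.955 between the genotypes. The median SD of a gene within a genotype was 0.188 in 113 and 0.200 in the null on the log2(signal + 16) scale. No probe set used here was named for Mef2, and the level of the targeted gene was not checked. For the same reason Mhc, Act57B, Tm1 and wupA were not analysed here.

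Many genes differed between 113 and the null, in both directions. On the log2(signal + 16) scale none of the 15 largest falls or 15 largest rises was in the muscle lists. This ranking holds for that pseudocount, which understates changes of dim genes. Over the alternative settings the fall of the fusion gene sing reached -2.77, and that of pio, 1 of these 15 falls, also reached -2.77. Of the 8357 genes, 1271 differed between the null and 113 (limma with Benjamini-Hochberg adjustment, adjusted p under 0.05), which is 15.2% of those tested. In the null 572 genes (6.84%) were higher and 699 (8.36%) were lower. After centring each array on its median, 714 were higher and 574 lower, so the balance of directions depends on the scaling. Their median absolute change was 0.55 on the log2(signal + 16) scale, and the median change of all genes was -0.01. At least 2-fold changes were fewer, 45 higher (0.538%) and 82 lower (0.981%). This number depends on the pseudocount, and the total of 127 became 268 with a pseudocount of 1 and 51 with 64. The 4 null arrays lay wholly on one side of the 4 arrays of 113 for 1079 called genes, 12.9% of those tested.

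**Figure D1:**
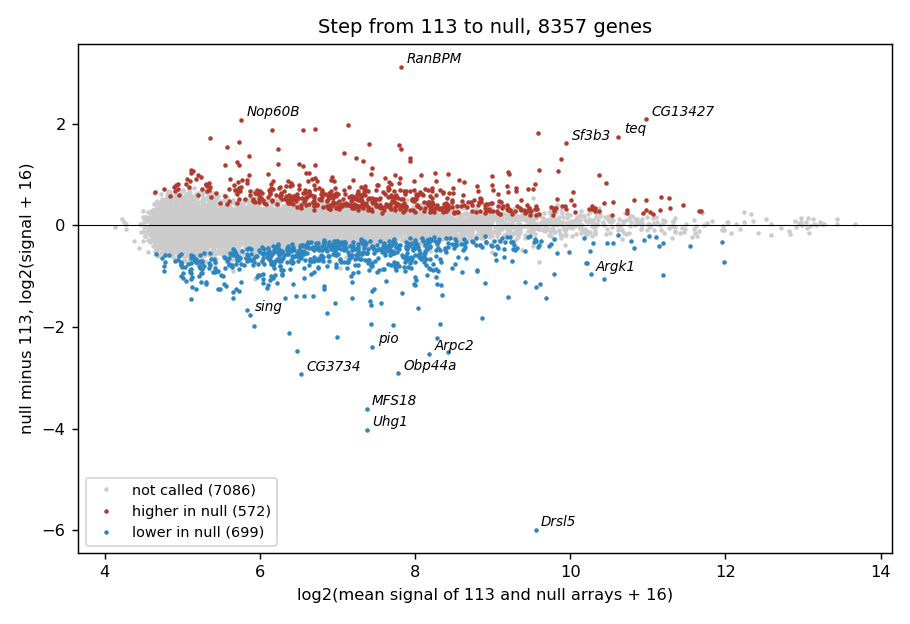
Each point is 1 of 8357 genes, with the log2 of the mean signal of the 8 arrays plus 16 on the x axis and the log2(signal + 16) difference, null minus 113, on the y axis. Red points are the 572 genes higher in the null, blue points the 699 lower and grey points the rest. Selected genes carry their names, among them Argk1 and sing, which were not among the largest falls. Drsl5 is lowest at -5.99 and RanBPM highest at 3.11.

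The largest fall was that of Drsl5, a gene of the drosomycin-like family of antifungal peptides. Its signal was 1403, 1331, 1541 and 1575 on the arrays of 113 and 1.97, 7.39, 19.6 and 3.50 on those of the null. All arrays of 113 were far above all null arrays, and the difference was -5.99 ± 0.18 (log2 ± SE, limma adjusted p = 1.51e-17). The gene did not follow the order of Mef2 activity, since the control mean was 7.63, close to that of the null, and the means of 65 and 424 were 1640 and 1007. CG3734 was high in 113 alone, with 127, 163, 153 and 146 on the arrays of 113 and 2.86, 2.63, 12.4 and 4.72 in the null, and no mean above 7.83 in the control, 65 or 424. Its change was -2.94 ± 0.20 (limma adjusted p = 6.41e-11). The gene passed the filter on low signals only through the arrays of 113, where it was high, so this test is a description.

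Most other large falls went from a level in 113 near that of the control to a low one in the null. Uhg1, whose introns carry small nucleolar RNAs, gave 332, 346, 283 and 232 on the arrays of 113 and 1.59, 8.38, 1.47 and 1.74 on those of the null, a change of -4.03 ± 0.13 (limma adjusted p = 2.59e-17), with a control mean of 318. MFS18 gave 261, 338, 269 and 292 in 113 and 4.13, 2.23, 8.91 and 26.1 in the null, a change of -3.61 ± 0.16. In both genes the groups were far apart. Obp44a, of the odorant-binding protein family, went from a mean signal of 371 ± 47.2 to 35.6 ± 8.04 (SD, n = 4 each), a change of -2.91 ± 0.14. Arpc2, a subunit of the Arp2/3 complex that nucleates branched actin, went from 477 ± 44.2 to 70.4 ± 14.3, a change of -2.52 ± 0.11. The other genes among the 15 largest falls ranged from -2.49 to -1.94. These were sprt, Marc, the apical matrix gene pio, casp, which encodes the FAF1 orthologue Caspar, the glutathione S-transferase gene GstE1, CG11275, the cytochrome P450 gene Cyp309a2, pcs and the pteridine synthesis gene pr. The null means of Drsl5, Uhg1, CG3734 and Cyp309a2 were below 9.29, the level of the filter on low signals, where the size of a change varies with the pseudocount. With pseudocounts of 1 and 64 they were -7.72 and -4.41 for Drsl5, -6.37 and -2.42 for Uhg1, -4.69 and -1.60 for CG3734, and -3.18 and -0.99 for Cyp309a2.

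Several of the largest rises had a low signal in 113 and in the other genotypes. RanBPM, which encodes a scaffold protein named for binding Ran, gave 40.5, 24.4, 28.2 and 31.5 on the arrays of 113 and 419, 370.0, 405 and 359.8 on those of the null, a change of 3.11 ± 0.14 (limma adjusted p = 5.55e-14). Every null array was well above every array of 113, and the means of the control, 65 and 424 were 36.6, 37.0 and 31.9. Nop60B, the pseudouridine synthase of H/ACA small nucleolar RNPs, had 7.36, 10.4, 1.94 and 0.344 in 113 and 66.8, 68.5, 84.1 and 65.7 in the null, a change of 2.08 ± 0.20 from a level under the filter (4.03 and 0.97 with pseudocounts of 1 and 64). The bright gene CG13427 went from 757 ± 72.7 to 3256 ± 126, a change of 2.08 ± 0.08. Sf3b3, a subunit of the SF3b complex of the spliceosome, went from 473 ± 70.5 to 1476 ± 216, a change of 1.61 ± 0.14.

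The tetraspanin gene Tsp42Ek rose by 1.98, the P450 gene Cyp28d1 by 1.90, GstE13 by 1.72, the dynactin subunit gene DCTN3-p24 by 1.63 and Nse1, of the Smc5/6 complex, by 1.54. GstE13 and Nse1 started from means under the filter level in 113, and with pseudocounts of 1 and 64 their changes were 3.58 and 0.73, and 2.63 and 0.71. Nop60B and GstE13 passed the filter only through the null arrays, where they were high, so the tests of these genes are a description. CG7742, CG42807, CG4440, CG6733 and CG15353 rose by 1.57 to 1.88. The serine protease gene teq rose by 1.74 on its brightest probe set, while its other probe sets gave 0.36, -0.10 and -0.44. CG6733 was low in the hypomorphs and not in the null, with means of 160.3 in the control, 69.2 in 113 and 239.5 in the null. All 30 of these large changes kept their call in each alternative setting that tested them, up to 20. CG3734, Nop60B, CG7742, CG42807, GstE13, DCTN3-p24 and Nse1 were not tested with the stricter filter on low signals, which left them out.

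**Figure D2:**
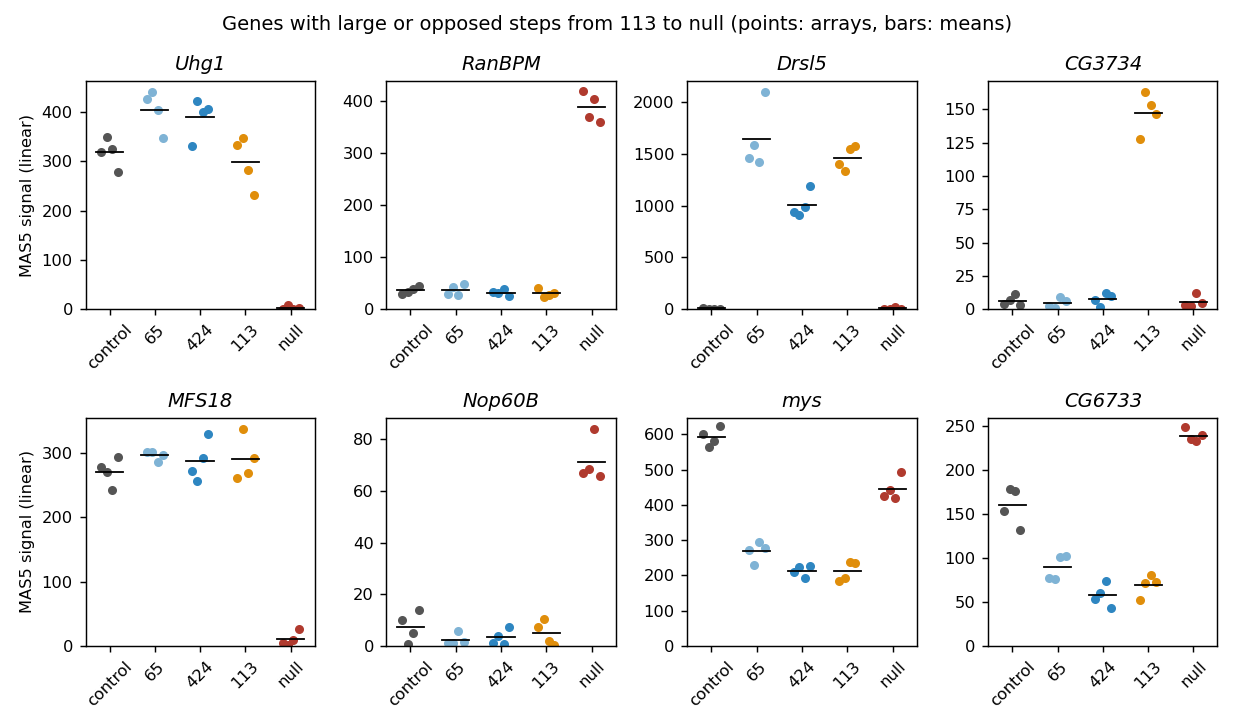
The y axis gives the linear MAS5 signal of 8 genes on each of the 20 arrays, by genotype in order of Mef2 level, with a bar at each mean of 4 arrays. Uhg1 and MFS18 are near 0 in the null alone, RanBPM and Nop60B are high in the null alone, CG3734 is high in 113 alone, and Drsl5, mys and CG6733 differ between 113 and null in the direction that brings the null mean nearer the control mean.

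Every sarcomere gene that was called was lower in the null, among them sls at -0.99, Tm2 at -0.83 and Actn at -0.49. Their order depends on the pseudocount, and with 64 these changes were -0.42, -0.35 and -0.43. Of 34 sarcomere genes on the array 23 were tested, and the rest lay under the filter on low signals. Of the 23 tested, 8 fell and none rose, and 15 were not called, where 15.2% of all genes were called and 8.36% were lower. The members' median change was -0.31, against -0.01 for all genes. Within the 4 hybridisation days, each of which held 1 array of 113 and 1 of the null, the median was -0.35, -0.20, -0.38 and -0.13. The lists were drawn up with earlier results of these data known, so these counts are a description.

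Among thick filament and myosin genes 1 of 6 fell (16.7% called, near the 15.2% of all genes), with a median of -0.28. Mlc1, the alkali light chain of muscle myosin, gave 23.7, 5.52, 21.9 and 7.37 on the arrays of 113 and 3.62, 3.23, 4.46 and 4.20 on those of the null. The null arrays were all lower, but 2 of the arrays of 113 were close to them, and the change of -0.57 ± 0.19 (limma adjusted p = 0.0472) lost its call in 11 of the 20 alternatives, with adjusted p-values of 0.00394 to 0.207. Its null mean lay under the filter level, and the change was -1.45 and -0.20 with pseudocounts of 1 and 64. Mlc2, the regulatory light chain, had 66.8, 55.0, 56.0 and 52.6 in 113 and 35.3, 49.2, 50.7 and 49.95 in the null. All null arrays were below all arrays of 113, but the change of -0.24 ± 0.13 was not called (95% interval -0.50 to 0.01, limma adjusted p = 0.215). Against a control mean of 514 ± 49.9 the same probe set gave -2.85 ± 0.13 in 113 and -3.09 ± 0.13 in the null, comparisons that share the control arrays. The connecting filament gene bt gave -0.31 (-0.70 to 0.07), Obsc, which encodes obscurin, -0.33 (-0.72 to 0.07) and Strn-Mlck, a myosin light chain kinase, 0.02 (-0.44 to 0.47), and none was called. unc-45, the chaperone of myosin, had 208, 225, 272 and 236 in 113 and 271, 266, 236 and 179 in the null, overlapping groups with a difference of 0.01 ± 0.12, while the control mean was 415. Prm, Mf and fln lay under the filter on low signals and were not tested.

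Thin filament genes had the largest share of falls among the sarcomere lists, 4 of 6 (66.7% called, against 15.2% of all genes), with a median of -0.37. Tm2, a muscle tropomyosin, gave 32.6, 35.2, 27.9 and 31.4 on the arrays of 113 and 13.7, 4.14, 12.0 and 14.7 on those of the null. The groups were apart, and the fall of -0.83 ± 0.14 (limma adjusted p = 0.000107) was called in all 20 alternatives. Its means ran from 115 in the control through 97.6, 65.0 and 31.8 to 11.2. The troponin T gene up had 24.9, 16.1, 30.7 and 12.3 in 113 and 3.20, 3.10, 4.37 and 17.1 in the null, so that 1 null array lay among those of 113. Its change of -0.70 ± 0.21 (limma adjusted p = 0.0218) was from 21.0 to 6.94, under the filter level (-1.70 and -0.26 with pseudocounts of 1 and 64), and lost its call in 9 alternatives, with adjusted p-values of 0.00252 to 0.300.

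The actin genes were brighter and changed less. Act87E gave 2627, 2402, 2589 and 2784 in 113 and 2054, 2116, 1924 and 2093 in the null, a change of -0.34 ± 0.07 (limma adjusted p = 0.000925). Act79B had 591, 539.8, 596 and 630.4 in 113 and 457, 436, 457 and 419 in the null, a change of -0.40 ± 0.09 (limma adjusted p = 0.00203). Neither actin had overlapping groups, and for both the mean of 113 was above the control mean, 2423 for Act87E and 556 for Act79B. TpnC73F, a troponin C, was at the bottom of the scale in both genotypes, 3.11, 0.675, 1.72 and 1.48 in 113 and 0.643, 4.82, 8.32 and 0.824 in the null, against a control mean of 137, so a further fall was not measurable. The pointed-end cap gene tmod gave -0.01 (-0.17 to 0.15) and was not called. Act88F, TpnC41C, TpnC4 and sals were under the filter and were not tested.

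Among Z-disc and giant proteins 3 of 11 fell (27.3% called, against 15.2% of all genes), with a median of -0.29. sls, the titin-related gene, gave 28.8, 32.5, 46.3 and 27.1 on the arrays of 113 and 12.1, 7.87, 11.6 and 4.29 on those of the null. The groups were apart, with a change of -0.99 ± 0.17 (limma adjusted p = 0.000178) to a null mean of 8.96, under the filter level (-1.86 and -0.42 with pseudocounts of 1 and 64). Its other 3 probe sets gave -0.17, -0.12 and -0.13, and with the mean of all probe sets per gene the change was -0.35 (limma adjusted p = 0.137; 2.31e-05 to 0.137 over the alternatives). Actn, the alpha-actinin of the Z-disc, had 364, 314, 348 and 352 in 113 and 269.9, 238, 235 and 218 in the null, groups that did not overlap, a change of -0.49 ± 0.11 (limma adjusted p = 0.00328). The ubiquitin ligase gene mib2, needed for muscle integrity, changed by -0.51 ± 0.13, from 223 ± 43.7 to 151 ± 24.5, with overlapping groups.

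The remaining Z-disc members were not called. Msp300, a giant nesprin, gave 48.3, 24.2, 16.7 and 14.0 in 113 and 18.4, 18.6, 2.33 and 16.8 in the null, overlapping groups, a difference of -0.46 ± 0.20 (limma adjusted p = 0.143). Zasp52 gave -0.29 (-0.63 to 0.05), CG1674 -0.32 (-0.71 to 0.07) and Mlp84B, a muscle LIM protein, -0.12 (-0.52 to 0.27). The actin capping genes cpa and cpb gave -0.05 and 0.24, and the filamin-type genes jbug and cher -0.03 and 0.06. Zasp66, Zasp67, Mlp60A and tn were under the filter.

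**Figure D3:**
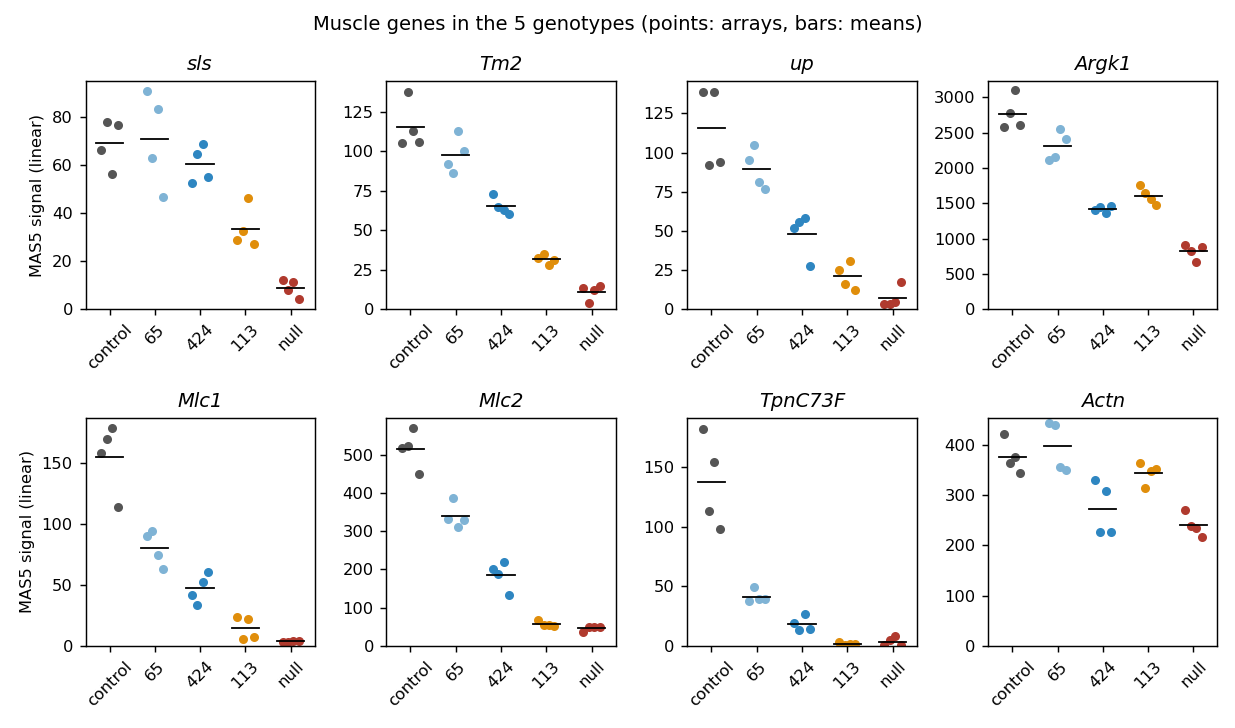
The y axis gives the linear MAS5 signal of 8 muscle genes on each of the 20 arrays, by genotype in order of Mef2 level, with a bar at each mean of 4 arrays. The step from 113 to null is the last one in each panel: sls, Tm2, Argk1 and Actn show null arrays below all arrays of 113, up shows 1 null array among those of 113, and Mlc1, Mlc2 and TpnC73F are close to the bottom of their range in both.

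Of 20 muscle membrane, calcium and energy genes 4 fell and none rose, with a median of -0.14, and the share called, 20%, was near the 15.2% of all genes. Argk1, the arginine kinase that buffers ATP in muscle, gave 1760, 1644, 1555 and 1475 on the arrays of 113 and 904, 824, 666 and 884 on those of the null. All null arrays lay well below all arrays of 113, and the change was -0.97 ± 0.09 (limma adjusted p = 1.73e-08). A less bright probe set of Argk1 gave -0.16, and the mean of both gave -0.56. RyR, the calcium release channel of the sarcoplasmic reticulum, went from 257 ± 16.9 to 185 ± 22.8, a change of -0.45 ± 0.11, and SERCA, its calcium pump, from 957 ± 116 to 732 ± 52.8, a change of -0.37 ± 0.10. mbl, the splicing regulator muscleblind, changed by -0.51 ± 0.16 (limma adjusted p = 0.0302), a call lost in 9 alternatives, with adjusted p-values of 0.0058 to 0.590. Over these its change ran from -0.66 to -0.17, the smallest with the mean of all probe sets. The calls of RyR and SERCA were lost with the fluidics module as a block. Ca-alpha1D, a calcium channel subunit, gave -0.10 (-0.45 to 0.24) and was chosen after its values were seen.

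Myoblast fusion genes moved both ways, 2 of 19 higher and 4 lower (31.6% called, against 15.2% of all genes), with a median of 0.02. sing, a membrane protein gene needed for fusion, gave 71.9, 91.4, 74.3 and 59.1 on the arrays of 113 and 7.91, 19.5, 6.62 and 9.01 on those of the null. The groups were far apart, and the fall of -1.76 ± 0.15 (limma adjusted p = 3.38e-09) was the largest among the sarcomere, membrane, fusion and attachment lists. Its control mean was 138. The adhesion receptor gene rst, which acts in recognition between myoblasts, changed by -0.57 ± 0.15, from 172 ± 12.0 to 114 ± 29.4 against a control mean of 126. Without null replicate 4 its call was lost. blow, which acts in fusion-competent myoblasts, changed by -0.43 ± 0.10 and rols, a scaffold gene of founder cells, by -0.36 ± 0.09. The Hedgehog co-receptor gene ihog rose by 0.62 ± 0.13 and the kinase gene Pak3 by 0.51. The receptor gene kirre gave 0.52 (-0.01 to 1.04), the zinc finger gene lmd, a regulator of fusion-competent myoblasts, -0.29 (-0.52 to -0.06) and Vrp1, a WASp partner, 0.02 (-0.26 to 0.29), none called. These 3 were chosen after their values were seen. lmd was called with a replicate block, at -0.29 (limma adjusted p = 0.0344; 0.0344 to 0.241 over the alternatives), and kirre without 113 replicate 1, at 0.78.

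In the muscle attachment and integrin adhesion list, 4 of 31 genes rose and 3 fell (22.6% called, against 15.2% of all genes), with a median of -0.07. mys, the beta integrin subunit of the PS integrins, gave 184, 194, 239 and 234 on the arrays of 113 and 425, 441, 419.6 and 493 on those of the null. Every null array was well above every array of 113, and the rise was 1.01 ± 0.09 (limma adjusted p = 1.32e-08). The control mean of mys was 593 ± 26.4, and the means of 65 and 424 were 268 and 213, so the null stood between the control and the hypomorphs. kon, a transmembrane protein gene needed for muscles to reach their tendon cells, rose by 0.44 ± 0.08 from 181 ± 11.3 to 250.5 ± 26.1. LanA, a laminin chain gene, rose by 0.28 ± 0.08, a call lost in 8 alternatives, and the Wnt receptor gene drl by 0.34. Tig, a matrix ligand of PS2 integrin, fell from 156 ± 25.2 to 97.3 ± 12.7, a change of -0.59 ± 0.14. Of the proteins that link integrin to actin, parvin changed by -0.46 ± 0.12 and stck by -0.30. The alpha PS2 integrin gene if, chosen after its values were seen, gave 52.0, 52.5, 51.8 and 43.5 in 113 and 45.2, 24.5, 38.9 and 22.8 in the null, with overlapping groups. Its difference of -0.46 ± 0.16 was not called (limma adjusted p = 0.0534) and passed in 5 of the 20 alternatives.

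Of 26 mesoderm and myogenic regulators 2 rose and 1 fell, with a median of 0.03. The share called, 11.5%, was near the 15.2% of all genes. The zinc finger repressor gene zfh1 gave 269.8, 271, 347 and 252 on the arrays of 113 and 156, 204, 175 and 179 on those of the null. The groups did not overlap, and the change was -0.63 ± 0.13 (limma adjusted p = 0.00102). Its means were 428.5 in the control, 198 in 65 and 69.8 in 424, so zfh1 did not follow the order of Mef2 activity. akirin, a nuclear cofactor of Twist, rose by 0.54 ± 0.09 and the T-box gene mid by 0.42 ± 0.11, a call lost without null replicate 4. twi itself gave 0.24 (-0.01 to 0.48) and the myogenic bHLH gene nau -0.20 (-0.48 to 0.08), both chosen after their values were seen and not called. Among 23 founder identity factors mirr alone was called (4.35%, against 15.2% of all genes), at 0.51 (limma adjusted p = 0.0478), and it lost its call in 11 alternatives. Visceral muscle genes had 3 of 11 members lower and none higher (27.3%), with a median of -0.21. These were mib2, HLH54F, a regulator of caudal visceral mesoderm, at -0.66 ± 0.13, and betaTub60D, a tubulin of differentiating mesoderm, at -0.45 ± 0.12. The visceral mesoderm factor genes bap and bin, chosen after their values were seen, gave -0.22 (-0.53 to 0.08) and 0.12 (-0.17 to 0.41). Of 17 heart genes (11.8% called) mid rose and the septate junction gene cora changed by -0.27, with a median of 0.01.

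Marker lists of other tissues in these whole embryos held calls in both directions, and the shares called ranged from 6.67% in the gut to 41.7% in glia, where 15.2% of all genes were called. Among 12 glial genes nrv2, a sodium pump subunit, rose by 0.90 ± 0.19 and the glial determinant repo by 0.55 ± 0.12, while wrapper, of midline glia, fell from 301 ± 24.03 to 161 ± 22.2, a change of -0.85 ± 0.11. The glutamine synthetase gene Gs2 changed by -0.43 and the septate junction gene Nrx-IV by -0.44, and the list's median was -0.04. Of 23 epidermal and apical matrix genes 1 rose and 6 fell (30.4% called), with a median of -0.17. grh, the epidermal transcription factor Grainy head, gave 129, 156, 141 and 128 in 113 and 271, 278, 333 and 234 in the null and rose by 0.93 ± 0.14. pio, a zona pellucida protein of the apical matrix, had 256, 288, 259 and 306 in 113 and 34.0, 36.5, 54.0 and 36.9 in the null and changed by -2.39 ± 0.11. In neither gene did the groups overlap. sha, needed for denticles, changed by -0.65, the giant matrix protein gene dpy by -0.57, neo, another zona pellucida protein gene, by -0.30, and the list shares Nrx-IV and cora with those above. The control mean of neo, 684, was near the null mean of 662 and below the 820 of 113.

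Hemocyte genes had 2 of 17 higher, the crystal cell gene PPO1 at 0.62 and Glt at 0.94, and 2 lower, Pxn at -0.67 and Tig. In that list 23.5% were called, against 15.2% of all genes, and the median was 0.06. The means of Pxn were 188 in the control, 333 in 113 and 200 in the null. Glt had a mean of 9.99 in 113, near the filter level of 9.29, and its control mean of 29.6 was near the null mean of 33.9. The control mean of PPO1, 141, lay between 102.5 in 113 and 169 in the null. Of 10 fat body genes (20% called) the lipid droplet gene Lsd-1 rose by 0.88 ± 0.15 and the lipoprotein gene apolpp changed by -0.31. Of 17 neuronal genes (11.8% called) insc, a regulator of asymmetric neuroblast division, rose by 0.54 and the homeobox gene pros changed by -0.35, a call lost in 9 alternatives. The means of pros were 274 in the control, 369 in 113 and 287 in the null. elav, the general neuronal marker, gave 0.03 (-0.78 to 0.85) and was chosen after its values were seen. In the trachea 1 of 14 genes was called (7.14%), uif at 0.57, and in the gut 1 of 15 (6.67%), bowl at -0.78. The part of cell type proportions in the muscle results was not tested.

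**Figure D4:**
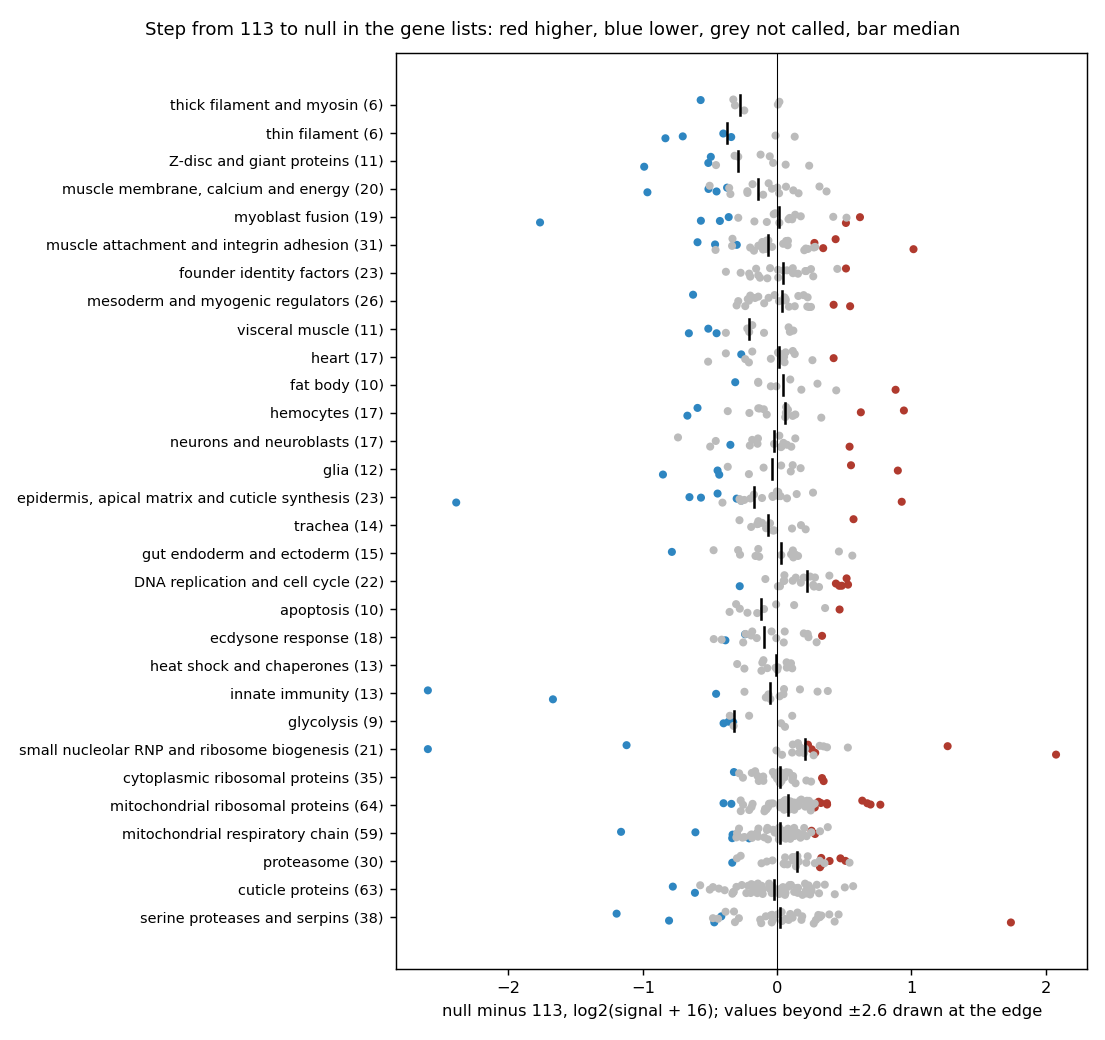
Each point is 1 tested member of a gene list, with the log2(signal + 16) difference, null minus 113, on the x axis and the number of tested members in brackets. Red points were called higher in the null, blue points lower, grey points not called, and black bars are list medians, which lie at -0.37 for the thin filament and at 0.22 for DNA replication and cell cycle.

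Among lists for general cell functions, DNA replication and cell cycle genes had 5 of 22 members higher and 1 lower (27.3% called, against 15.2% of all genes and 6.84% higher), with a median of 0.22. The sliding clamp gene PCNA gave 429, 405, 420.2 and 502 on the arrays of 113 and 618, 602, 590.3 and 659.5 on those of the null, groups that did not overlap, a rise of 0.48 ± 0.08 (limma adjusted p = 0.000107). The other rises were in subunits of the MCM helicase, Mcm2 at 0.53, dpa at 0.52, Mcm5 at 0.46 and Mcm3 at 0.44. With the fluidics module as a block dpa, Mcm3 and Mcm5 lost their calls. Cdk2 changed by -0.28, and was not called after median centring, when 7 members were higher. Proteasome genes had 7 of 30 members higher and 1 lower (26.7% called), with a median of 0.15, led by Prosbeta2 at 0.51, Rpn11 at 0.47 and Rpt3 at 0.39, with Rpn8 at -0.33. After median centring 8 were higher and none lower. The control mean of Prosbeta2, 930, lay between 732 in 113 and 1050 in the null.

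In the glycolysis list 3 of 9 genes were lower, none was higher and 6 were not called (33.3% called, against 15.2% of all genes and 8.36% lower), with a median of -0.32. They were Men, which encodes malic enzyme and no enzyme of glycolysis itself, at -0.40, Eno, which encodes enolase, at -0.36 and Pgi, which encodes glucose phosphate isomerase, at -0.33. The calls of Eno and Pgi were lost in 5 and 10 alternatives, and that of Men in 2, the module block and the mean of probe sets, where it was -0.20.

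In the list of small nucleolar RNPs and ribosome biogenesis 5 of 21 rose and 2 fell (33.3% called, against 15.2% of all genes), with a median of 0.21. Beside Nop60B and Uhg1, the H/ACA protein gene Gar1 gave 824, 849.9, 938 and 1073 on the arrays of 113 and 456, 403, 392 and 403 on those of the null, a change of -1.12 ± 0.10 (limma adjusted p = 1.2e-08). l(2)k09022 rose by 1.27 ± 0.12, Nopp140 by 0.28, the fibrillarin gene Fib by 0.26 and Nnp-1 by 0.23. Mitochondrial ribosomal protein genes had 9 of 64 higher and 2 lower, with a median of 0.08, a share called of 17.2% that was near that of all genes. Among them were mRpS18B at 0.77 and mRpL24 at 0.70. Cytoplasmic ribosomal protein genes had 2 of 35 higher and 1 lower (8.57%), with a median of 0.02. In the respiratory chain 2 of 59 genes rose and 5 fell (11.9%), with the complex I genes ND-B17 at -1.16 ± 0.08 and ND-18 at -0.61 ± 0.08 lowest.

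Of 13 innate immunity genes 3 fell and none rose (23.1% called, against 15.2% of all genes). Beside Drsl5 these were Anp, which encodes the antibacterial peptide andropin, at -1.67 ± 0.27, and cact, the IkB-type inhibitor of the Toll pathway, at -0.45 ± 0.10. The means of Anp were 14.8 in the control, 70.5 in 113 and 11.7 in the null, so 113 was the raised group. Among 38 serine proteases and serpins (13.2% called) teq rose, and grass, a protease of the Toll pathway, changed by -1.20 ± 0.25, Spn27A by -0.80 ± 0.10, Spn88Ea by -0.47 and Spn42De by -0.42. The control means of Spn88Ea and Spn42De, 30.1 and 105, were nearer the null means of 40.5 and 107 than the 60.6 and 149 of 113. That of Spn27A, 137, was above the null mean of 69.0. Of 63 cuticle protein genes (3.17% called) Gasp, at -0.78 ± 0.15, and obst-B, at -0.61, fell. The control mean of Gasp, 134, was near the null mean of 135 and below the 245 of 113. That of obst-B, 240, was above the null mean of 171. The ecdysone response list had 1 of 18 higher, ImpL2 at 0.33, and 2 lower, Kr-h1 at -0.39 ± 0.08 and Cth at -0.24 (16.7% called). The calls of ImpL2 and Cth were each lost in 13 alternatives. Of 10 apoptosis genes the caspase gene Dcp-1 alone was called (10%), at 0.46, and of 13 heat shock and chaperone genes none was.

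The called genes were not spread evenly over the chromosomes. On the second chromosome, which carries mef2, 19.2% of 3158 tested genes were called, against 12.8% of 5199 tested genes elsewhere. The shares were 20.1% on 2L, 18.4% on 2R, 13.8% on 3L, 13.5% on 3R and 10.1% on X. Of the 127 genes changed at least 2-fold, 91 lay on the second chromosome, 71.7% against 37.8% of all tested genes. With a pseudocount of 1 it was 160 of 268 and with 64 it was 39 of 51, alternatives added after values were seen. The third chromosome held 31 of them and the X 5. No test was made of these shares.

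Chromosome 4 had the largest share of calls, 31.9% of 47 tested genes. There 14 genes were lower in the null and 1 was higher, against 8.36% lower of all genes. With the fluidics module as a block 7 were lower, and CG33941, Tdg, PMCA, PIP4K, ci, ATPsynbeta and apolpp were no longer called. The median change was -0.23, or -0.18, -0.20, -0.17 and -0.37 within the 4 hybridisation days. The TGF-beta ligand gene mav gave 412, 383, 377 and 352 on the arrays of 113 and 197, 226, 239 and 157 on those of the null, groups that did not overlap, a change of -0.86 ± 0.15 (limma adjusted p = 0.000194). Another ligand gene of that family, myo, went from 148 ± 31.4 to 84.0 ± 19.1, a change of -0.72 ± 0.16, and a further one, Actbeta, changed by -0.56, a call lost in 11 alternatives, among them the replicate block at -0.56 (limma adjusted p = 0.0542). Taf3, which encodes a subunit of the general transcription factor TFIID, had 575, 651, 644 and 557 in 113 and 406, 352, 433 and 422 in the null and changed by -0.57 ± 0.09.

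The other chromosome 4 genes that fell had various functions. They were CG31999 at -0.79, CG33941 at -0.75, the DNA glycosylase gene Tdg at -0.60, the ankyrin gene Ank at -0.58, the calcium pump gene PMCA at -0.57, the lipid kinase gene PIP4K at -0.54, the zinc transporter gene Zip102B at -0.46, ci, the transcription factor of the Hedgehog pathway, at -0.44, ATPsynbeta at -0.33 and apolpp. CG11076 was higher, at 0.30, a call lost in 13 alternatives. These genes, and the chromosome itself, were chosen after their values were seen.

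**Figure D5:**
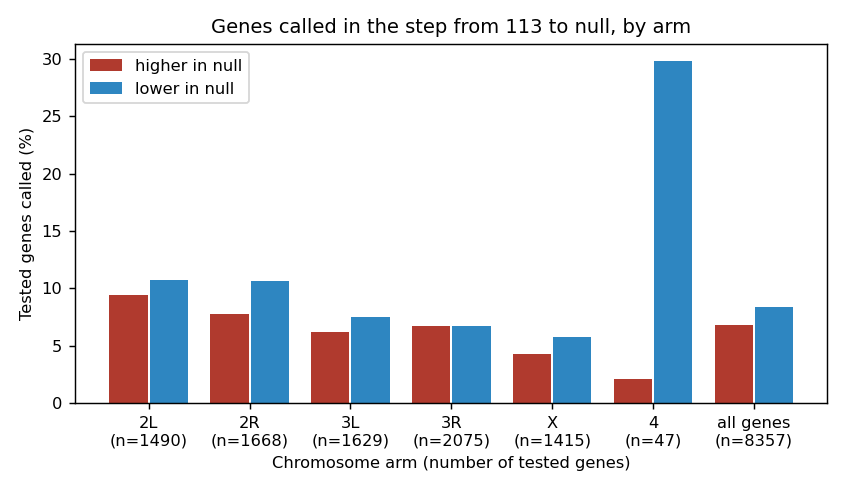
Bars give the percent of tested genes on each chromosome arm that were called higher (red) or lower (blue) in the null than in 113, with the number of tested genes under each arm. On chromosome 4, 14 of 47 genes were lower, and 2L and 2R have larger shares than 3L, 3R and X.

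Of the genes named by the visible markers of the control stock, dp, cn, px and sp had a measured probe set, as dpy, cn, px and speck. px gave 270.2, 258, 238 and 298 on the arrays of 113 and 458, 539, 479 and 502 on those of the null, a rise of 0.86 ± 0.08 (limma adjusted p = 2.77e-08). speck had 22.2, 23.1, 35.3 and 29.8 in 113 and 6.55, 3.96, 4.22 and 5.29 in the null, a change of -1.04 ± 0.15 to a level under the filter (-2.25 and -0.41 with pseudocounts of 1 and 64). The groups were apart in both genes, and their control means were 299 and 69.9. cn gave 0.30 (-0.26 to 0.87) and was not called. This list was added after values were seen.

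The 8 arrays of 113 and null were hybridised on 4 days, with 1 array of each of the pair on each day. In 1209 of the 1271 called genes the sign did not differ between the 4 days, and these genes were chosen on the same arrays. The arrays of 113 ran on fluidics modules 2 and 3 and those of the null on modules 3 and 4. Within module 3, with 2 arrays of each genotype, the median change of the sarcomere list was -0.31. With the module as a block 581 genes were called, 228 higher and 353 lower, the standard errors were 1.35 times as large at the median, and 551 of the calls were shared with those above. Of the sarcomere genes 6 were lower in that fit, and of the chromosome 4 genes 7. The list that follows leaves out Pak3, drl, stck, Cdk2, Rpn11, Rpn8, Fib and Nnp-1, whose calls are not given here for that fit. The genes described above that lost their call in it were up, mib2, RyR, SERCA, mbl, rols, Tig, parvin, LanA, mirr, betaTub60D, cora, apolpp, Glt, Pxn, insc, pros, sha, dpa, Mcm3, Mcm5, Dcp-1, ImpL2, Cth, Men, Pgi, Nopp140, ATPsynbeta, obst-B, Spn42De, Spn88Ea, dpy, CG33941, Tdg, PMCA, PIP4K, ci and CG11076.

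A few further calls rested on single arrays or on weak evidence. Without 113 replicate 3 the calls of Pxn, Spn42De and dpy were lost, and without null replicate 4 those of Tdg, ci, rst and mid. That of ci was also lost without 113 replicate 4, and that of Nopp140 without null replicate 3, 113 replicate 1 or 113 replicate 4. With the mean of all probe sets per gene the calls of mbl, rols, Men and apolpp were lost. Dcp-1 and cora each lost their call in 10 of the 20 alternatives, Spn88Ea in 12 and CG33941 in 14.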

How the data were processed

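RNA from whole stage 13 embryos was measured on Affymetrix arrays with 1 value per probe set. The deposited values are linear intensities, and per the submitters' processing notes the authors used MAS5, with no version stated. The genome build is not given in the sources used here. Array means after trimming 2% at each end were 100.02, so the deposited values had been scaled to a common level. A lone symbol was given for 12443 of 14010 probe sets, several for 327 and none for 1196, and 44 were controls. Of the single symbols 12394 matched the RefSeq Release 6 gene table, the source of symbols and chromosomes, and all kept symbols stood for 10844 genes. The brightest probe set represented a gene. Probe sets in the lowest 25% by mean (signal about 9.29) were left out with 2487 genes.

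The values were tested here as log2(signal + 16), which understates changes of dim genes, with limma 3.58.1 in R 4.3.3. It fitted 1 mean per genotype over all 20 arrays (eBayes with a trend, 15 residual degrees of freedom, 8.54 prior ones at the median). The call threshold was an adjusted p of 0.05 after Benjamini-Hochberg. Changes are null minus 113, ± is SE for a change and SD for a signal, and ranges in brackets are 95% intervals. The number of arrays limits the precision. Intervals cover the spread between arrays. The script was tested on simulated data. Other tools were numpy 2.4.6, python 3.11.15, matplotlib 3.10.9 and pandas 2.3.3.

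Named genes were, among called genes whose arrays did not overlap, the 15 largest falls and 15 largest rises, up to 5 called members per list with the smallest p, and all sarcomere members. Others were chosen after their values were seen. The arrays, the lists and these rules were chosen with earlier results of these data known. Same-numbered arrays of 113 and null shared a hybridisation day, and the correlations of their deviations were 0.03, 0.05, -0.00 and 0.10. Alternatives were other pseudocounts, filters, scalings, probe set rules, blocks, sample sets and each array left out.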

Additional observations from a re-analysis of the deposited data

Results flagged for a closer look

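Signals of 7 genes in the null had 1 array far from the other 3, out of 106 groups of 4 arrays examined, where chance marks about 1 in 20 groups. Uhg1 was at 8.38 in null replicate 2 and at 1.47 to 1.74 on the others, all close to the bottom of the scale. Arpc2 was at 49.0 in null replicate 4 against 77.2 to 78.1. In null replicate 3, pio was at 54.0 against 34.0 to 36.9, Nop60B at 84.1 against 65.7 to 68.5, and Msp300 at 2.33 against 16.8 to 18.6. Mlc2 was at 35.3 in null replicate 1 against 49.2 to 50.7. up was at 17.1 in null replicate 4 against 3.10 to 4.37, and this array lay among those of 113. The calls of Uhg1, Arpc2, pio and Nop60B held without any 1 array, that of up was lost in 5 of the 8 fits that left out 1 array, and Mlc2 and Msp300 were not called.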

How the results depend on the processing

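Across 20 alternatives, 90 of the 141 named genes that were called stayed called in each that tested them, and no named gene reversed while called. Of 3359 combinations of a named gene and an alternative, 216 lost a call, 45 of them with the fluidics module as a block, and 13 gained one. The count of changed genes, 1271, was 581 with the module as a block. Genes changed at least 2-fold, 127, numbered 268 with a pseudocount of 1 and 51 with 64. The 14 chromosome 4 genes that were lower, a count added after values were seen, became 7 with the module block. With the replicate block 1475 genes were called (669 higher, 806 lower) and with the hybridisation day as a block 1412. Of the named genes, the replicate block added the call of lmd and ended that of Actbeta (limma adjusted p = 0.0542), and changed no other call. Leaving out 1 array gave 1020 to 1150 changed genes, 131 to 143 genes changed at least 2-fold, 6 to 8 lower sarcomere genes and 11 to 15 lower chromosome 4 genes. The causes of these shifts were not tested. Signals near or below the filter level limit what could be seen of Mlc1, TpnC73F, bt and other sarcomere genes. The choice of probe set bears on sls, teq, Argk1, mbl, rols, Men and apolpp. Genetic background and the loss of Mef2 cannot be told apart.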

Other observations

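Genes of detoxification enzymes were called in both directions in the step from 113 to null. This was noticed after the values were seen, and no test was made of it. Of 31 tested glutathione S-transferase genes 3 were higher in the null and 10 lower, with a median change of -0.23, and of 43 tested cytochrome P450 genes 6 were higher and 7 lower, with a median of -0.06, where 15.2% of all genes were called. GstE6 gave 672, 711, 741 and 713 on the arrays of 113 and 220.1, 206, 176 and 158 on those of the null, a change of -1.82 ± 0.09 (limma adjusted p = 1.39e-13). GstE3, a gene of the same cluster on 2R, went the other way, from 527, 470.1, 537 and 593 in 113 to 1316, 1480, 1211 and 1307 in the null, a change of 1.30 ± 0.10 (limma adjusted p = 2.2e-09). The groups did not overlap in either gene. The control mean of GstE3, 835, lay between those of 113 and the null, and the mean of allele 424, 1479, was above the null mean of 1329. On 3R, GstD3 changed by -1.63 ± 0.09 and GstD5 by -1.52 ± 0.12. The control mean of GstD5 was 126, below the 264 of 113. Of the P450 genes, Cyp6a8 fell from 493 ± 47.0 to 118 ± 24.4, a change of -1.94 ± 0.13, while Cyp310a1 rose by 1.50 ± 0.14 and Cyp4e2 by 1.01 ± 0.07. Members of these families can be close in sequence, and signal from related transcripts could not be separated here.

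udd, which acts in transcription of ribosomal RNA genes, had means of 1877 in the control, 449.8 in 65, 2600 in 424, 294 in 113 and 388 in the null, so that 113 and null were close to each other at 0.37 ± 0.13 (limma adjusted p = 0.0628) while the other means were higher. CG6171 was low in 113 with 35.5, 30.0, 9.90 and 21.1 and not in the null with 93.2, 102, 93.7 and 86.7, a change of 1.50 ± 0.17 (limma adjusted p = 4.67e-07), and its control mean was 68.5. Both genes were chosen after their values were seen.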
